A study of Mus musculus with 4 samples.

Results

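Klk5, Klk6, Klk7, Klk8, Klk9, Klk10, Klk11, Klk12, Klk13 and Klk14 are neighbouring genes of the tissue kallikrein cluster on mouse chromosome 7, and their transcripts were compared between Neu-driven mouse mammary tumour cells labelled Pak1-/- and Pak1+/+. The members were taken by name: every non-control array probe annotated with the name of a gene from Klk5 to Klk14. This gave 10 genes of the 31896 on the array, each with 1 probe (10 of 39429 probes) and 1 spot per array. Of these, 9 entered the fit across all probes because their spots stood well above background on 2 or more of the 4 arrays, and 8 did so on all 4. The cluster was chosen by the measured difference of its genes between these groups, in which Klk10 and Klk14 were among the largest decreases on the array, so its group differences are given below as descriptions, without a p-value, and nothing is read from how many of them passed the threshold.

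Total RNA, labelled with Cy3 alone, was hybridised to Agilent mouse arrays whose probes are 60 bases long. The cells were grown from breast tumours of MMTV-Neu mice, which express the Neu (Erbb2, Her2) oncogene in mammary epithelium from the mouse mammary tumour virus promoter. They fell into a Pak1-/- group (n = 2) and a Pak1+/+ group (n = 2), which the series' design text derives from 2 tumours per group, and Pak1 encodes a kinase acting downstream of the GTPases Rac and Cdc42. All cells, the Pak1+/+ cells included, came from Neu mice, were kept in low calcium medium with horse serum, and were serum starved for 3 h and then given EGF for 15 min before harvest. The study's methods describe them as tumour-derived cell lines named by genotype alone, so that separate tumours within a group rest on the design text. If the samples of a group came from the same line, the p-values measure only the spread between these samples, which may be technical. Sex and age of the mice were not given in the sources used here.

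Kallikreins 5 to 14 are secreted trypsin- or chymotrypsin-like serine proteases that are made as inactive precursors and activated when a short propeptide is cut off. In stratified epithelium they act as a cascade in which kallikrein 5 activates itself and then kallikreins 7 and 14, which cut the desmosomal proteins that hold the outer cells together, and the inhibitor LEKTI (Spink5) restrains them. Outside the skin, kallikreins 6 and 8 are best known from the nervous system, and human KLK10 was first described as a gene active in normal mammary epithelial cells and silent in many breast cancer cell lines.

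The sequences below show what was measured for the members whose levels differed most between the groups. Each of the following is the 60-base array probe of a member, in the transcript's direction and 5′ to 3′, and each holds an open reading frame. The Klk14 probe ends in the triplet TGA, given in capitals, which closes its open frame.
Klk10: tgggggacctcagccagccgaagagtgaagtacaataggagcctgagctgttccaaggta
Klk14: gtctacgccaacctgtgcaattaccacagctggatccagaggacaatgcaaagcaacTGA
Klk8: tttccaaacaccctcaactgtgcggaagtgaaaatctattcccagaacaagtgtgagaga
The longest run of bases that any 2 of the 10 member probes had in common was 8. GC content ranged from 35% for the Klk7 probe to 55% for the Klk10 probe.

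The 100 bases before the transcription start are given for the same 3 genes and for Klk6, whose probe had the brightest spots of the cluster. They come from RefSeq windows on GRCm38.p6, chromosome 7, plus strand. They are shown because promoters of genes that differ together can be compared letter by letter. Capitals mark GTTAAAA in Klk10, Klk8 and Klk6, GGGCGG (the GC box) in Klk8 and AGAACA (a steroid receptor core) in Klk6. GTTAAAA was picked out after the windows had been read. Klk6 has 2 annotated starts, and the stretch shown is the one that holds this run. The other, chr7:43824444-43824543, holds GGGCGG and no GTTAAAA. No searched motif lay in the Klk14 stretch, nor in that of Klk9, which is not shown although Klk9 differed more than Klk6.
Klk10, chr7:43780954-43781053: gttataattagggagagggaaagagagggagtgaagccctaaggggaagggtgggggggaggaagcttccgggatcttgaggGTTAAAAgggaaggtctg
Klk8, chr7:43797477-43797576: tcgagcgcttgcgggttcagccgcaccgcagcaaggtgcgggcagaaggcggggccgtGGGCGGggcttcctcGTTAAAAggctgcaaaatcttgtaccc
Klk6, chr7:43825350-43825449: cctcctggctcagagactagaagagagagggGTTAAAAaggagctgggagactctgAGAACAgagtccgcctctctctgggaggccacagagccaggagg
Klk14, chr7:43690318-43690417: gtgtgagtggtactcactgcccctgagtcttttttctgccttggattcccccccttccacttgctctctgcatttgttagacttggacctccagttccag

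The probe positions that follow are those of the deposited files, on mm9 (NCBI37), and are not interchangeable with the GRCm38.p6 positions above. Levels are normalized log2 intensities, each fold is taken on that scale, and a difference is the Pak1-/- mean minus the Pak1+/+ mean. Probes differ in how brightly they bind, so levels are compared between arrays for the same probe and never between genes.

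Before the members, the labels and arrays were examined. The Pak1 probe did not back the Pak1-/- label: it read 12.23 ± 0.03 (SD, n = 2) on the arrays labelled Pak1-/- and 12.04 ± 0.002 (SD, n = 2) on those labelled Pak1+/+, a difference of 0.19 (SE 0.07, limma adjusted p = 0.070). The Erbb2 probe was well above background on all 4 arrays and read 11.93 ± 0.03 against 12.23 ± 0.03 (SD, n = 2 each), lower in the arrays labelled Pak1-/- (-0.31, limma adjusted p = 0.020). Whether the Pak1 probe lies within the deleted part of Pak1 was not given in the sources used here, so every direction below is between the arrays labelled Pak1-/- and those labelled Pak1+/+. All 4 arrays lay on 1 slide and were read in 1 scan, with the Pak1-/- samples at positions 1 and 2 and the Pak1+/+ samples at positions 3 and 4, so slide position and genotype cannot be told apart. Median spot intensity was 322 to 331 and 62.2% to 70.4% of the probes were well above background. In this comparison 51.0% of the 22014 genes in the fit passed the threshold (limma, Benjamini-Hochberg adjusted p under 0.05), 28.2% lower and 22.8% higher in the Pak1-/- arrays. With every probe counted, 51.9% of 27229 passed, 28.6% as lower and 23.3% as higher. The balance depends on the scaling: 44.9% of the called probes were higher here and 52.4% with cyclic loess, where the median difference of all probes was 0.002 in place of -0.05. With 2 samples a group an exact permutation test cannot go below p = 0.333.

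Kallikrein transcripts were lower in the arrays labelled Pak1-/- for most of the cluster, by amounts that ran from 164-fold for Klk10 to 1.25-fold for Klk12. Of the 9 members in the fit, 7 passed the limma threshold as lower (28.2% of all genes did), namely Klk6, Klk8, Klk9, Klk10, Klk11, Klk12 and Klk14. None was higher (0 of 9 by limma, also 0 at an unadjusted p under 0.05, against 22.8% of all genes), and Klk5 and Klk13 did not pass. Of the 9, 5 were called lower by at least 2 on the log2 scale, against 1.30% of all genes called lower by that much. The median difference of the 9 members was -2.21 and that of all genes -0.05. Since the cluster was chosen by this difference, these counts and the median only describe the members. In RNA from whole cultures, fewer cells that transcribe a gene and less RNA per cell cannot be told apart.

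**Figure D1:**
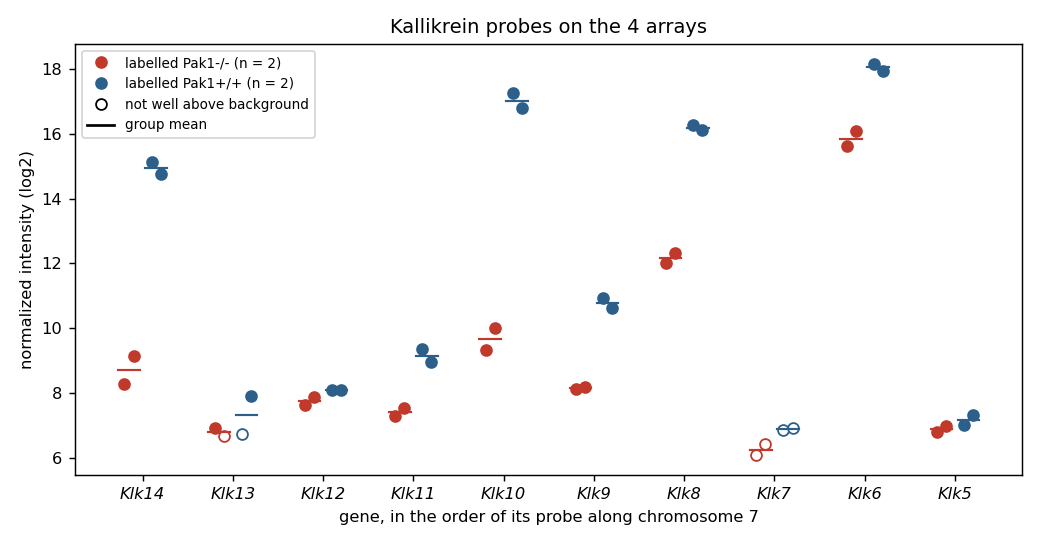
Normalized log2 intensity (y axis) of the 10 kallikrein probes in their order along chromosome 7 (x axis) on the 2 arrays labelled Pak1-/- (red) and the 2 labelled Pak1+/+ (blue), with open circles for values not well above background and bars for group means. The groups lie far apart for Klk14, Klk10 and Klk8, with Klk10 at 9.34 and 9.99 against 17.25 and 16.79, while they lie close together for Klk12 and Klk5 and overlap for Klk13.

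Klk10 (probe A_51_P212390, chr7:51039077-51039720, an interval longer than the probe itself) had the widest gap of the cluster. Its log2 intensity was 9.34 and 9.99 in Pak1-/- replicates 1 and 2, and 17.25 and 16.79 in Pak1+/+ replicates 1 and 2. Both Pak1-/- arrays lay far below both Pak1+/+ arrays, at a level that was still well above background. The group means were 9.67 ± 0.46 and 17.02 ± 0.33 (SD, n = 2 each), a difference of -7.36 (SE 0.27), or 164-fold lower. In the spot intensities before any correction the same samples read 639, 1038, 171994 and 120857, so the gap was present in the scanner values. Among all 27229 probes in the fit, counted from the most negative difference, Klk10 stood at rank 4.

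Klk14 (probe A_55_P2084950, chr7:50950330-50950389), a trypsin-like protease of the skin cascade, followed at rank 6. It read 8.29 and 9.13 in the Pak1-/- arrays and 15.12 and 14.76 in the Pak1+/+ arrays. The groups were again far from overlapping, although the Pak1-/- replicates differed from each other more than for any other member well above background on all 4 arrays. Means of 8.71 ± 0.59 and 14.94 ± 0.26 (SD, n = 2 each) gave a difference of -6.23 (SE 0.31), or 75.2-fold lower. The uncorrected spot intensities were 301 and 562 against 37330 and 27596.

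Klk8 (chr7:51057455-51057514), neuropsin, a protease of hippocampus and skin, read 12.02 and 12.33 in the Pak1-/- arrays and 16.26 and 16.12 in the Pak1+/+ arrays. It stayed bright in both groups, at 12.18 ± 0.22 and 16.19 ± 0.10 (SD, n = 2 each), and was 16.2-fold lower in Pak1-/- (difference -4.02, SE 0.13, rank 41). Klk6 (chr7:51084762-51084821), neurosin, which cuts myelin proteins and α-synuclein, read 15.62 and 16.09 in the Pak1-/- arrays and 18.17 and 17.95 in the Pak1+/+ arrays. Its spot intensity reached 325249 in Pak1+/+ replicate 1, and no spot of Klk6 or of the other members carried a saturation or outlier flag. The Klk6 means were 15.85 ± 0.33 and 18.06 ± 0.16 (SD, n = 2 each), a difference of -2.21 (SE 0.18), or 4.62-fold lower, and the probe was far above background in both groups.

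Klk9 (chr7:51051703-51051762), a little studied member that lies between Klk10 and Klk8, read 8.13 and 8.19 against 10.94 and 10.64, a difference of -2.63 (SE 0.12), or 6.18-fold lower in the Pak1-/- arrays. Klk11 (chr7:51034552-51034611), a trypsin-like member also called hippostasin, read 7.29 and 7.53 against 9.35 and 8.96, a difference of -1.74 (SE 0.16), or 3.34-fold lower. Neither gene's groups overlapped. Both were well above background on every array but dim in the Pak1-/- cells, with uncorrected intensities of 266 and 280 for Klk9 and 147 and 170 for Klk11 over local backgrounds of 42 and 41 for Klk9 and 47 and 40.5 for Klk11. The offset of 50 added in background correction understates differences at such levels.

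Klk12 was measured by a probe of its own name and by a second that the files name only by its transcript. The named probe (A_55_P2084970, chr7:51028738-51028797) read 7.64 and 7.87 in the Pak1-/- arrays and 8.08 on both Pak1+/+ arrays, a difference of -0.32 (SE 0.10), or 1.25-fold lower. The gap between the groups was about as wide as the gap between the Pak1-/- replicates, and the call was lost under 8 of 13 other settings. The second probe (A_55_P2128073, chr7:51028889-51028948), which is outside the rule and was noticed while the locus was read, gave 6.79 and 7.14 against 8.48 and 8.10, a difference of -1.33 (SE 0.18). It was not well above background in Pak1-/- replicate 1. Both probes were lower in the Pak1-/- arrays, but they disagreed about the size.

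Klk5 (chr7:51106492-51106551), the protease that starts the skin cascade, was dim throughout, at 6.81 and 6.98 in the Pak1-/- arrays and 7.02 and 7.33 in the Pak1+/+ arrays. The difference was -0.29 (SE 0.13) and missed the threshold, although the groups did not overlap (8 of 9 members did not, against 77.5% of all genes). Klk13 (chr7:50982064-50982123) was well above background only in Pak1-/- replicate 1 and Pak1+/+ replicate 2, at 6.92 and 7.92, and read 6.68 and 6.73 in the other two samples. Its groups overlapped, and the difference of -0.52 (SE 0.40) rested on Pak1+/+ replicate 2, since it was 0.072 without that array. Klk7 (chr7:51071388-51071447), the chymotrypsin-like enzyme of the skin cascade, stayed below the well above background limit on each array (6.08 and 6.41 against 6.86 and 6.90), so no fold is given.

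Most members also moved the same way between replicates. Pak1-/- replicate 2 was above replicate 1 for 8 of the 9 members (49.5% of all genes), and Pak1+/+ replicate 2 was below replicate 1 for 7 of the 9 (51.2% of all genes). Both held for 7 members, the same ones that were lower in the Pak1-/- arrays, against 25.9% of all genes, although the Pak1+/+ replicates of Klk12 were nearly equal. The median absolute difference between replicates was 0.24 (Pak1-/-) and 0.31 (Pak1+/+) for the members, and 0.11 and 0.083 for all genes. The genes share each sample's array, so these counts describe 4 samples only. Outside the cluster, replicate 2 of each group also lay nearer the other group for Hpn, Krt17 and Oxtr, but not for Vdr or Tgm1. The share among genes with differences as large was not computed, so the shares over all genes are no matched background. The 5 non-member genes whose centred values over the 4 arrays lay nearest to the members' mean profile were Fam174b (Euclidean distance 0.047), Adamts14 (0.059), an unnamed transcript (ENSMUST00000105034, 0.084), Gcat (0.093) and Htatip2 (0.0996), with group differences of -2.80, -2.87, -2.89, -2.80 and -2.88.

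Along the chromosome the member probes spanned 156.221 kb, and the differences were uneven along that stretch. Klk14 at its start had a difference of -6.23, Klk13 and Klk12 beside it -0.52 and -0.32, the run of Klk11, Klk10, Klk9, Klk8 and Klk6 (with Klk7 not in the fit) from -7.36 to -1.74, and Klk5 at its end -0.29. Between the outermost member probes the fit held 2 other transcripts, both lower in the Pak1-/- arrays: 2310002F09Rik (-0.26) and the second Klk12 transcript given above. Within 200 kb before Klk14, 6 of 10 genes were in the fit, of which 1 was higher and 2 were lower, with a median difference of 0.07, and these 3 calls of 6 are near the share over all genes (51.0%). The higher one, Gm2511, was well above background only in the Pak1-/- arrays (6.74 and 6.93 against 6.53 and 6.50), which gives no fold. The nearest was Ctu1, a tRNA-modifying enzyme, 17.2 kb away and lower (10.18 and 10.48 against 11.38 and 11.23, difference -0.98, limma adjusted p = 0.0039). Siglece, a sialic acid receptor, lay 43.6 kb away with a difference of 0.07. The zinc finger gene Zfp719, 102 kb away, was lower (-1.32, limma adjusted p = 0.00040). Within 200 kb after Klk5, 3 of 9 genes were in the fit and none passed the threshold (0 by limma, adjusted or at an unadjusted p under 0.05). These were Klk4, an enamel protease, 34.6 kb away (-0.11), Klk1b8 (-0.13) and Klk1b9 (-0.41).

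**Figure D2:**
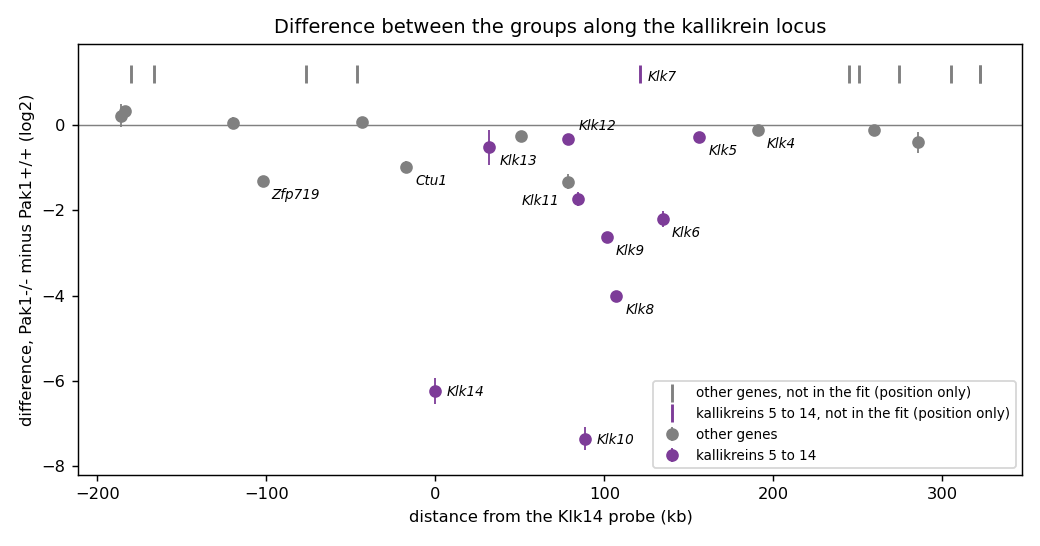
Difference in log2 intensity, Pak1-/- minus Pak1+/+ (y axis), against distance from the Klk14 probe in kb (x axis), for kallikreins 5 to 14 (purple) and other genes within 200 kb (grey), 1 point per gene with bars for the standard error of the fit and ticks at the top for the positions of genes not in the fit. Klk14 (-6.23) and Klk10 (-7.36) lie lowest, Klk13, Klk12 and Klk5 lie near 0, and the genes on either side lie between -1.32 (Zfp719) and values near 0, among them Gm2511, which was dim in the Pak1+/+ arrays.

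The remaining kallikreins, Klk4, Klk15 and the Klk1 family of glandular kallikreins, were mostly dim. Of 16 such genes, 8 were in the fit, 2 were lower and none was higher (0 by limma, 0 at an unadjusted p under 0.05), with a median difference of -0.17. The share that was lower is near that over all genes (28.2%, with 22.8% higher). Klk1b24 was 7.18 and 7.29 against 7.77 and 7.56 (-0.43, limma adjusted p = 0.023) and Klk1b21 was 9.09 and 8.93 against 9.47 and 9.29 (-0.37, limma adjusted p = 0.040). The Klk1b genes are near-identical copies, so a probe of that family can take up RNA of its neighbours and these values are uncertain as to gene. The 2 calls became 0 without either Pak1-/- array.

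Proteases that activate kallikreins and inhibitors that block them were counted together. Of 13 such genes, 11 were in the fit, 8 were higher and 1 was lower in the Pak1-/- arrays (22.8% and 28.2% of all genes were), with a median difference of 0.56. Hpn, the membrane protease hepsin, had the largest difference: 13.67 and 13.49 in the Pak1-/- arrays against 6.90 and 7.10 in the Pak1+/+ arrays, of which the last was not well above background (6.58, limma adjusted p = 4.2e-05). A2m, a broad protease trap, was 8.53 and 8.14 against 7.01 and 6.97 (1.35, limma adjusted p = 0.0022). Spink5, the gene of LEKTI, was 7.55 and 7.92 against 6.90 and 6.73, the last pair not well above background, which makes it at least 1.71-fold higher. Spink5 entered the fit only through the Pak1-/- arrays, where it was high, so its place among the 8 follows in part from the filter. The gene that was lower was Spint1 (-0.58), which encodes an inhibitor of matriptase and hepsin, while matriptase itself (St14, 0.37), prostasin (Prss8, 0.64) and the related inhibitor Spint2 (0.77) were higher. Spint1, St14, Prss8 and Spint2 were singled out after their values were seen.

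Of 19 genes of known kallikrein substrates, 15 were in the fit, 6 were higher, 3 were lower and 6 did not pass (51.0% of all genes passed), with a median difference of -0.09. Of the 6 that were higher, Igfbp3 entered the fit only through the Pak1-/- arrays (at least 1.05-fold). Kng1, the kininogen from which kinins are cut, was 6.89 and 6.99 against 10.83 and 10.47 (-3.71, limma adjusted p = 0.00017), but a second Kng1 probe was dim on all 4 arrays, not rising well above background. App, the amyloid precursor protein, was 17.71 and 17.47 against 15.93 and 16.05 (1.61, limma adjusted p = 0.00070). Dsg3, a desmosomal cadherin of stratified epithelium, was 8.16 and 8.37 against 9.72 and 9.59 (-1.39, limma adjusted p = 0.00089).

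The kallikrein cascade is best known from keratinocyte differentiation. Of 24 genes of that programme, 19 were in the fit, 4 were higher, 6 were lower and 9 did not pass, with a median difference of -0.18. These 10 calls of 19 are near the share over all genes (51.0%), and they numbered 6 without Pak1+/+ replicate 1. Klf4, a transcription factor of the skin barrier, was 10.53 and 10.52 against 8.54 and 8.56 (1.97, limma adjusted p = 0.00014). Tgm1, the transglutaminase that cross-links the cornified envelope, was 7.31 and 7.16 against 8.98 and 9.15 (-1.83, limma adjusted p = 0.00042), and Krt16, a keratin of activated keratinocytes, was 12.65 and 12.34 against 11.01 and 11.07 (1.46, limma adjusted p = 0.0012).

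Steroid and related nuclear receptors are known regulators of kallikrein transcription in other tissues. Of 12 receptor genes, 11 were in the fit, 5 were higher and 2 were lower (22.8% and 28.2% of all genes were), with a median difference of 0.12. The vitamin D receptor, Vdr, was 15.16 and 14.86 in the Pak1-/- arrays against 11.12 and 11.05 in the Pak1+/+ arrays (3.93, limma adjusted p = 0.00012). Thrb, a thyroid hormone receptor, was lower on both of its probes (-0.85 on the brighter, limma adjusted p = 0.0092), and Rxra, the shared partner of many of these receptors, was higher on both (0.82 on the brighter, limma adjusted p = 0.0012).

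**Figure D3:**
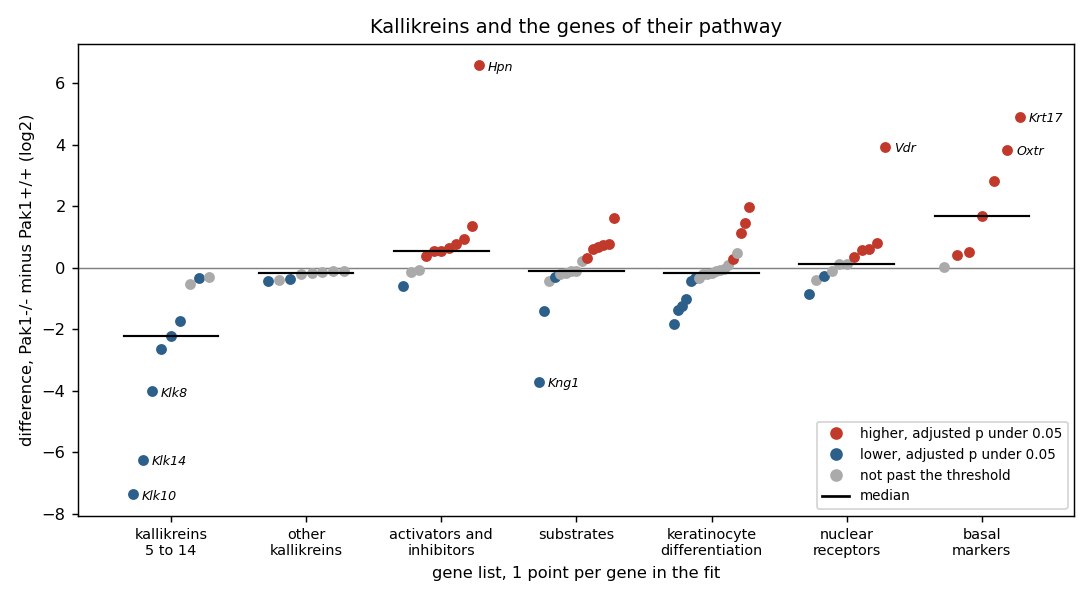
Difference in log2 intensity, Pak1-/- minus Pak1+/+ (y axis), for each gene in the fit of 7 lists (x axis), coloured by whether it passed the limma threshold as higher (red), as lower (blue) or not (grey), with a bar for each list's median. The points of Spink5 and Igfbp3, dim in the Pak1+/+ arrays, stand at their fitted values. The kallikreins 5 to 14 have a median of -2.21, the other kallikreins -0.17, the activators and inhibitors 0.56 with Hpn at 6.58, and the basal markers 1.69.

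The make-up of the cultures was read from cell type markers. All 8 epithelial markers were in the fit, with a median difference of 0.009. Of these, 3 were higher in the Pak1-/- arrays (Cdh1 by 1.19, Krt8 by 0.57 and Krt18 by 0.27). None was lower by limma (1 at an unadjusted p under 0.05), while 22.8% of all genes were higher and 28.2% lower. Krt19 (-0.64), Epcam (-0.23), Cldn3 (-0.17), Cldn7 (-0.005) and Cldn4 (0.02) did not pass. The log2 summed level of the 8 epithelial markers was 20.15 and 20.17 against 19.90 and 19.87. Basal or myoepithelial markers moved with the kallikrein difference in the opposite direction. Of 8 such genes 7 were in the fit, 6 were higher and none was lower (0 by limma, 0 at an unadjusted p under 0.05; 22.8% and 28.2% of all genes were), led by Krt17 (14.09 and 13.64 against 8.85 and 9.05), Oxtr (12.65 and 12.10 against 8.47 and 8.59) and Krt14 (15.93 and 15.89 against 13.05 and 13.10). Their log2 summed level was 16.63 and 16.48 in the Pak1-/- arrays and 14.28 and 14.24 in the Pak1+/+ arrays, and Myh11, a smooth muscle myosin, was dim on all 4 arrays. The part of this difference in the kallikrein levels was not tested. Of 8 fibroblast markers 3 were in the fit, with a median difference of 0.03. The collagen gene Col1a1 was higher (1.12, while 22.8% of all genes were), and Col1a2 (0.03) and Pdgfra (-0.16) did not pass. Col3a1, Pdgfrb, Dcn and Lum were dim on all 4 arrays. Of 8 leukocyte markers 6 were in the fit, with a median difference of 0.18. The pan-leukocyte Ptprc was lower (-0.45) and the other 5 did not pass. Csf1r, Cd3e and Itgam had positive differences (0.12, 0.25 and 0.49), as did Cd52, and Cd68 had a negative one (-0.20). Cd52 was well above background only in the Pak1-/- arrays (7.13 and 7.71 against 6.70 and 6.93, at least 1.47-fold), while Lyz2 was dim on all 4 arrays. Of 5 endothelial markers 3 were in the fit and did not pass: Pecam1 (-0.09), Cdh5 (0.26) and Kdr (0.04 on its brighter probe, at 13.21 and 13.13 against 12.99 and 13.27). A dimmer Kdr probe read 8.05 and 7.92 in the Pak1-/- arrays and was not well above background in the Pak1+/+ arrays (6.61 and 6.63), and Tek and Emcn were dim on all 4 arrays. These genes other than Ptprc were named after their values were seen. The log2 summed level of the fibroblast markers was 10.61 and 10.43 against 10.29 and 10.24, that of the leukocyte markers 16.19 and 15.68 against 15.55 and 15.41, and that of the endothelial markers 13.34 and 13.29 against 13.15 and 13.41. The last pair of sums rest almost wholly on 1 probe each, of Itgam (16.07 and 15.51 against 15.39 and 15.20) and of Kdr, and are no measure of the number of such cells.

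The members' RefSeq promoter windows (250 bases before to 50 after the start, GRCm38.p6) were searched on both strands for motifs of factors known at kallikrein or keratinocyte promoters. All 10 genes had a window, 12 windows in all because Klk6 and Klk11 had 2 starts each. The mouse windows they are set beside leave out a chromosome that holds no member, and all windows below means these. The TATA box TATAAA was in none of the 12 windows (13.6% of 32851 mouse promoter windows hold it), and neither were the AP-1 motif TGANTCA (7.81%), the nuclear receptor core AGGTCA (16.3%) or the grainyhead motif AACNGGTT (2.09%). The GC box GGGCGG was in 5 windows, those of Klk6, Klk7, Klk8 and Klk9 (35.7% of all windows). AGAACA, the steroid receptor core, was in 4 windows, of Klk6, Klk10, Klk11 and Klk14 (19.0%). The run GTTAAAA lay at position -18 from the start of Klk10, -27 from that of Klk8 and -69 from a start of Klk6, and was in 3.41% of all windows. CG dinucleotides numbered from 0 in Klk14 to 23 in Klk8 per window, with a median of 4 in the members and 7 in all windows, so the genes with large differences included both the poorest and the richest window. These matches are letters in a reference sequence and were not measured in the cells.

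The kallikrein differences were recomputed under other processing. Across 13 other settings, which included other background corrections and normalizations, the table of log2 values that the authors deposited, and leaving out each array in turn, 6 or 7 members were lower and none was higher. Klk10 ranged from -7.68 to -7.03, Klk14 from -6.65 to -5.81, Klk8 from -4.17 to -3.86, Klk9 from -2.97 to -2.48, Klk6 from -2.44 to -1.97 and Klk11 from -2.41 to -1.55.

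**Figure D4:**
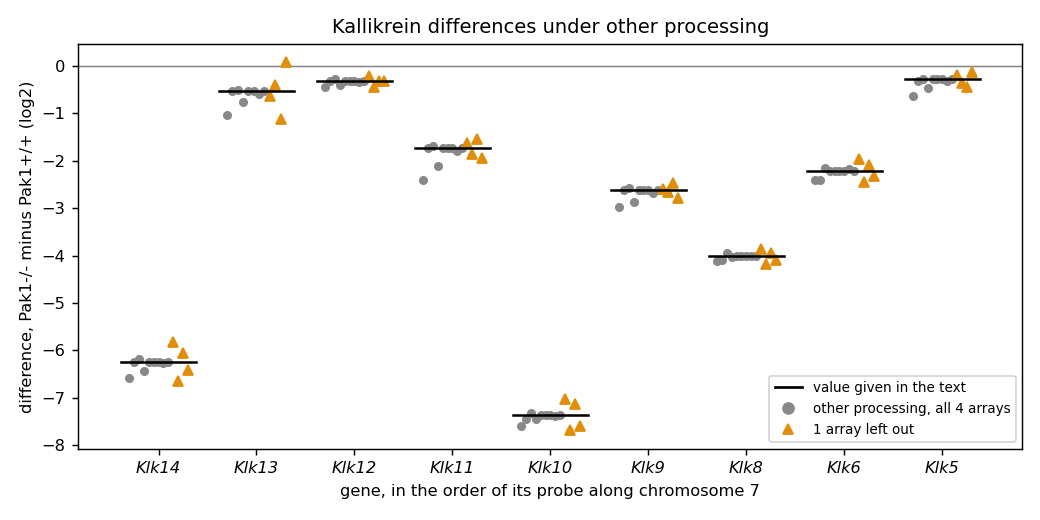
Difference in log2 intensity, Pak1-/- minus Pak1+/+ (y axis), of the 9 kallikreins in the fit, in their order along chromosome 7 (x axis), as given in the text (black bar), under other processing of all 4 arrays (grey points) and with 1 array left out (orange triangles). The order of Klk10, Klk14 and Klk8 as the 3 lowest was kept in each, and Klk13 alone crossed 0, without Pak1+/+ replicate 2.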

How the data were processed

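Total RNA of 4 mouse tumour cell samples, 2 Pak1-/- and 2 Pak1+/+, was measured on Agilent arrays. The deposited scanner output holds spot intensities on a linear scale, written by Feature Extraction 9.5.3.1 per the file headers and not normalized between arrays, with other columns of 0 or 1 for saturated, outlying and well above background spots. A second table deposited by the authors holds log2 values, normexp corrected and quantile normalized per their methods, with values in 24008 of 39485 rows; it served as an alternative, and its offset was not given in the sources used here.

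Background was corrected with normexp (limma 3.58.1, R 4.3.3, offset 50) on all spots, control spots were dropped, and the 43020 others were log2 transformed and quantile normalized. Spots flagged as outliers were set aside and spots averaged per probe. The 27229 of 39429 probes whose signal was well above background on 2 or more arrays were fitted with lmFit and eBayes (genotype only, 2 residual and 2.62 prior degrees of freedom), two-sided, and p-values adjusted over all of them by Benjamini-Hochberg at 0.05. The offset, filter and threshold were set here. Where both arrays of a group were dim, a fold is only a lower bound, computed from the lowest signal well above background on each array. The brightest probe stood for a gene. Of 32334 probes with a RefSeq accession, 26055 were matched to a GRCm38.p6 symbol. The members and the gene lists were chosen with earlier results of these data known. Named were all members, the 3 largest differences among called genes of each list, the 3 nearest measured genes on each side and the 5 genes with the nearest profile. Per the series' design text, the samples of a group are from different tumours. Precision is limited by having 4 arrays. Same-numbered samples did not deviate together (correlation of replicate differences -0.03), so the groups were not paired. Alternatives were other background corrections, scalings and filters, the mean over a gene's probes, the deposited log2 table, a replicate block and leaving out each array.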

Additional observations from a re-analysis of the deposited data

How the results depend on the processing

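Of 116 log2 differences of single members recomputed under 13 alternatives, 106 kept their direction and their side of the threshold. Klk6, Klk8, Klk9, Klk10, Klk11 and Klk14 were lower under all 13. Klk12 lost its call under 8 and ranged from -0.45 to -0.21. Members called lower numbered 6 or 7, and the 7 found with no filter on dim probes included Klk7. Klk13 was -1.12 without Pak1+/+ replicate 1 and 0.072 without Pak1+/+ replicate 2, the only reversal. With the replicate number as a block, 13211 of 27229 probes passed against 14132 without it, and 6 members were lower. Every sample's number only names it, so the block has no basis in the labels. Of the other kallikreins 2 were called, but 1 with normexp scaled to the 75th percentile, with cyclic loess or with the deposited log2 table, 3 with the replicate block, and 0 to 1 with an array left out (at an unadjusted p under 0.05, 1 to 2). Keratinocyte differentiation genes called numbered 10, and 6 to 8 with an array left out, with 6 without Pak1+/+ replicate 1. Leaving out an array leaves 1 sample in a group, so the spread comes from the other group alone and calls from those fits are not comparable. The causes of these changes were not tested. Signal over background limits Klk5, Klk7 and Klk13, which lay near the lowest signals well above background.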
